A study of Mus musculus with 9 samples.

Results

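The mitochondrial ribosomal proteins are the nuclear-encoded proteins of the ribosome that works inside mitochondria. The genes described here were every protein-coding gene of the deposited mouse liver expression table whose symbol begins with Mrpl or Mrps followed by a number, which gave 78 of the 54532 genes listed, 49 of the large subunit (Mrpl) and 29 of the small subunit (Mrps). The rule uses only the biotype and the symbol. The RNA-seq libraries came from livers of male C57BL/6 mice, 5 to 7 weeks old, in 3 groups of 3 mice each. The NC group is labelled as control, the APAP group received a single intraperitoneal dose of 500 mg/kg acetaminophen (APAP) after an overnight fast, and the AMSC group received the same APAP dose followed at once by 200000 mesenchymal stem cells from mouse inguinal fat, injected through the tail vein. The livers of both APAP-dosed groups were taken at 6 h. Fasting and a vehicle injection are not stated for the NC group by name, so in comparisons against NC the dose, the injection and any difference in feeding cannot be told apart. Reads on genes numbered 13418921 to 16210930 per library. The title of NC replicate 3 carries a different date from the other 8 libraries, so the main counts and medians against NC are also given without it.

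The mitochondrial ribosome translates the few messenger RNAs encoded by mitochondrial DNA, all of which specify subunits of the respiratory chain and ATP synthase. Its 2 ribosomal RNAs are transcribed inside the organelle, whereas its proteins are made in the cytosol and imported. The large subunit forms peptide bonds and releases the growing chain through an exit tunnel, and the small subunit holds the messenger RNA and decodes it. Hepatocytes are rich in mitochondria, and the reactive product of an APAP overdose binds mitochondrial proteins. The liver label was checked against hepatocyte markers, and all 10 hepatocyte genes examined passed the filter. They were led by Alb, the gene of serum albumin, at 27230 to 46612 FPKM. FPKM, the unit of the table, counts fragments per kilobase of gene, scaled by a factor for each library. In whole liver, fewer cells of a type and less RNA per cell cannot be told apart.

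The promoters of the 3 members with the lowest log2 fold change in APAP against NC are printed because these genes carry the largest differences described below. The stretches run from 250 bases before to 30 bases after the RefSeq start on GRCm38.p6, 5′ to 3′ on the + strand, at chr13:99344536-99344815 for Mrps27, chr2:28467816-28468095 for Mrps2 and chr11:58171414-58171693 for Mrpl22. Capitals mark the letters CCGGAAG, the core of sites bound by ETS factors such as Gabpa, and ATGGCGG, the core of sites bound by Yy1, searched on both strands. The matches do not overlap each other in these stretches.
Mrps27: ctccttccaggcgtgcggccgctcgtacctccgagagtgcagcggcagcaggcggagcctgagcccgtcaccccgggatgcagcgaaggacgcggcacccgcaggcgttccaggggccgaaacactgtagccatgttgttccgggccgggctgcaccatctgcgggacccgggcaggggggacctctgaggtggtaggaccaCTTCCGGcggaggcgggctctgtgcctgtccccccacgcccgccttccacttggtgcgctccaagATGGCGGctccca
Mrps2: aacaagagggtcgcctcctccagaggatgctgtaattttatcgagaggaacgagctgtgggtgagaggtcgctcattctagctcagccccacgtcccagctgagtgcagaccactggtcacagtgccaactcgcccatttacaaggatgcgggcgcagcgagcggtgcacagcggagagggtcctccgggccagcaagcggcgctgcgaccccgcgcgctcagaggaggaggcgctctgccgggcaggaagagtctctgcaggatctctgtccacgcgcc
Mrpl22: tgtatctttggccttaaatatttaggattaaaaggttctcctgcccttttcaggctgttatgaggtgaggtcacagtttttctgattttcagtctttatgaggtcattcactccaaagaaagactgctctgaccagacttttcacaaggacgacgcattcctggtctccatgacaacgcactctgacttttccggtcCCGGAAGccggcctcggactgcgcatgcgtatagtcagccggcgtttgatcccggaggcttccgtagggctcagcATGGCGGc
Mrps27 holds the ETS letters on the opposite strand 48 bases before the start, and Mrpl22 holds them on the + strand 53 bases before it. The Yy1 letters begin 17 bases after the start of Mrps27 and 22 bases after that of Mrpl22. The printed stretch of Mrps2 holds none of the motifs searched, which says only that these letters are not in this window. RefSeq gave a promoter for 69 of the 78 members. In windows of 250 bases before to 50 bases after the start, the ETS letters were in 37.7% of them, against 21.7% of 7191 tested genes with a promoter and 9.93% of all 27025 promoters. The Yy1 letters were in 18.8% of the members, 10.7% of the tested genes and 4.69% of all promoters. The NRF1 letters (GCGCA, any base, then GCGC) were in 18.8% of the members and 12.4% of the tested genes, the E-box CACGTG bound by Myc and Max in 7.25% and 12.5%, and the GC box GGGCGG in 49.3% and 69.2%. Among members that fell in APAP against NC, 7 of 17 with a promoter held the ETS letters, against 18 of 51 members that did not pass the test. The Yy1 letters were in 5 of 17 against 7 of 51, the NRF1 letters in 3 against 10, the E-box in 1 against 4 and the GC box in 6 against 28. These matches are descriptions of sequence, and no binding was measured.

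In the NC livers the members ranged over 56.8 times in level. The median was 12.02 FPKM, from 1.501 FPKM for Mrps25 to 85.2 FPKM for Mrpl34, with medians of 15.3 FPKM for the 48 large subunit genes tested and 9.14 FPKM for the 29 small subunit genes. Mrpl34, one of the smallest large subunit proteins, stood at 79.6, 87.5 and 88.6 FPKM in NC replicates 1, 2 and 3. Mrpl12, a protein of the flexible stalk that contacts translation factors, followed at 54.2 ± 2.24 FPKM (SD, n = 3), and Mrpl14 at 52.0 ± 2.16 FPKM (SD, n = 3). The spread of Mrpl12 and Mrpl14 overlapped, whereas every NC value of Mrpl34 lay above both. Of the small subunit, Mrps24 was highest by its mean over the 9 libraries, at 44.0 ± 1.02 FPKM in NC (SD, n = 3), followed by Mrps21 at 43.3 ± 4.17 FPKM and Mrps12 at 36.3 ± 5.72 FPKM. These neighbours did not differ beyond their spread. By the mean over the 9 libraries, the lowest tested members were Mrpl33, Mrpl19 and Mrpl48 of the large and Mrps25, Mrps30 and Mrps35 of the small subunit, with NC means of 1.76, 2.97, 2.64, 1.501, 2.66 and 4.06 FPKM. Mrpl53 was listed at 0 in all 9 libraries. In GENCODE vM21, 695 of the 790 exonic bases of Mrpl53 lie in exons of Gm42688 on the same strand, and it entered no test.

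FPKM divides by the gene length in the table, and this length differed widely among the members, from 607 bases for Mrpl34 to 8631 bases for Mrps35. Across the 77 tested members the NC level and the length had a Spearman correlation of -0.82, so the order of levels between genes moves with the lengths used by the authors, whereas comparisons of a gene between groups share one length. As recovered from the steps in the FPKM values, a member held a median of 411 reads per library (range of means 106 to 1153), and the lowest single value was 67 reads. The members lie on 17 chromosomes.

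**Figure D1:**
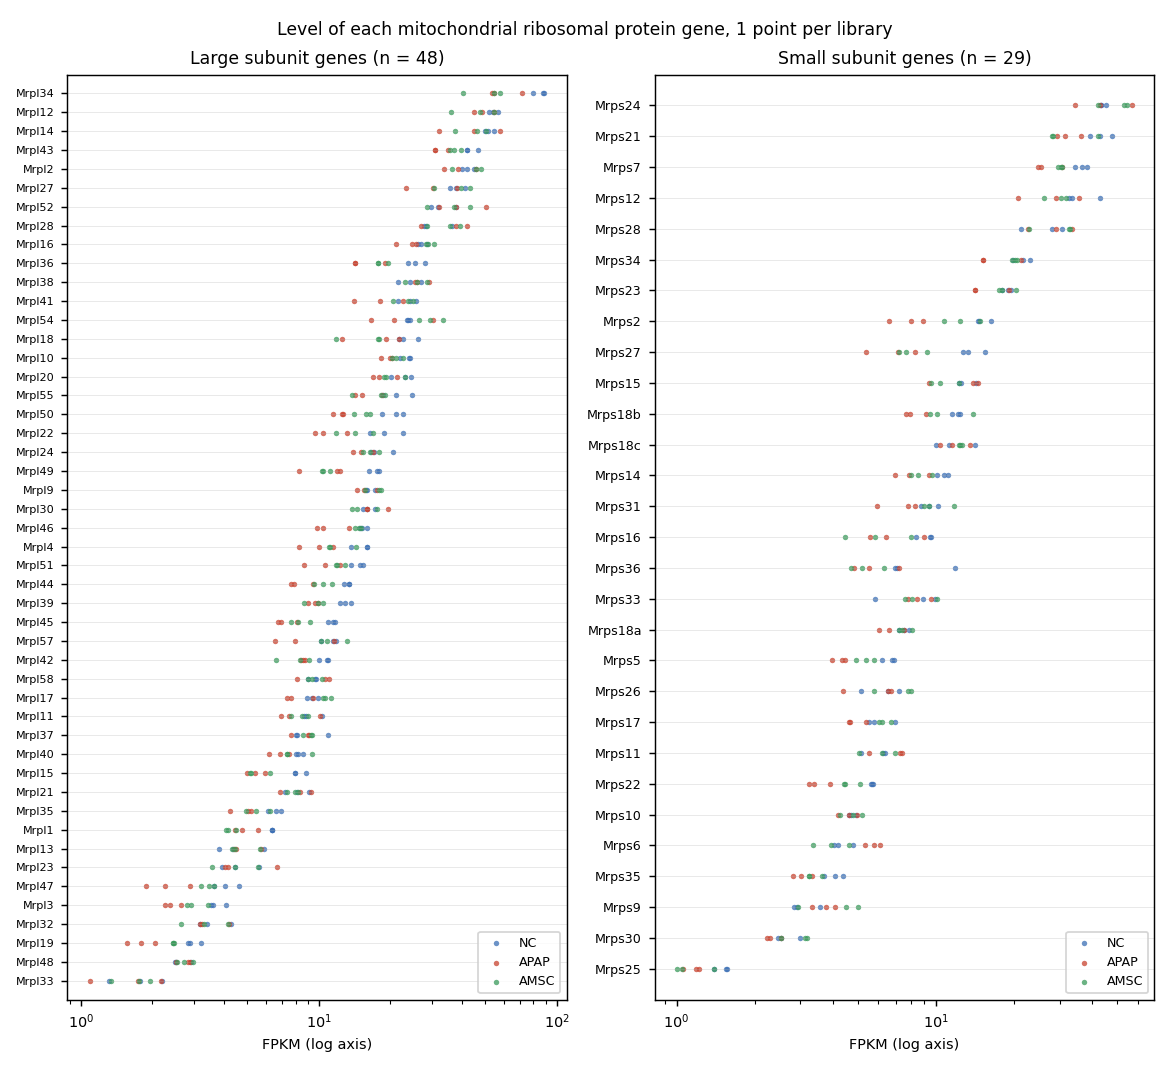
FPKM of each of the 48 large subunit genes (left) and 29 small subunit genes (right) on a log axis, ordered by NC mean, with 1 point per library (NC blue, APAP red, AMSC green, 3 libraries each). For most genes the spread between libraries is small beside the range between genes, which runs in NC from 1.501 FPKM for Mrps25 to 85.2 FPKM for Mrpl34.

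The members as a group were lowest in the APAP livers. Averaged over 77 members on the log2(FPKM + 1) scale and set against the NC mean, the 3 NC libraries stood at -0.05, -0.03 and 0.08, the APAP libraries at -0.40, -0.29 and -0.10, and AMSC replicates 2, 3 and 4 at -0.06, -0.21 and -0.17. All 6 libraries of the APAP-dosed groups lay below all 3 NC libraries, and the APAP and AMSC groups overlapped, with APAP replicate 3 well above the other 2. The group means were -0.26 ± 0.15 in APAP and -0.15 ± 0.08 in AMSC (SD, n = 3). The number of members below their NC mean was 74, 61 and 47 of 77 in the APAP libraries and 44, 65 and 57 in the AMSC libraries, but also 60, 48 and 15 in the NC libraries themselves, NC replicate 3 being the highest library.

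The order of the groups was the same for both subunits. The large subunit mean was -0.28 ± 0.16 in APAP and -0.17 ± 0.07 in AMSC, and the small subunit mean was -0.25 ± 0.14 in APAP and -0.13 ± 0.09 in AMSC (SD, n = 3). The large minus small difference, set to 0 in NC with an SD of 0.01, was -0.05, -0.03 and -0.01 in the APAP libraries and -0.06, -0.03 and -0.03 in the AMSC libraries. These values lie at or below those of the NC libraries, which ran from -0.01 to 0.02, but the differences are small beside the shift of either subunit. As a share of the reads on genes, the members made up 0.286 ± 0.018% in NC, 0.198 ± 0.026% in APAP and 0.226 ± 0.014% in AMSC (SD, n = 3), with no overlap between NC and either other group. With libraries scaled by total reads on genes, 59.7% and 41.6% of the members were lower against NC in APAP and AMSC. So were 27.3% and 22.4% of all tested genes, so a lower share of the reads is not particular to the members.

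**Figure D2:**
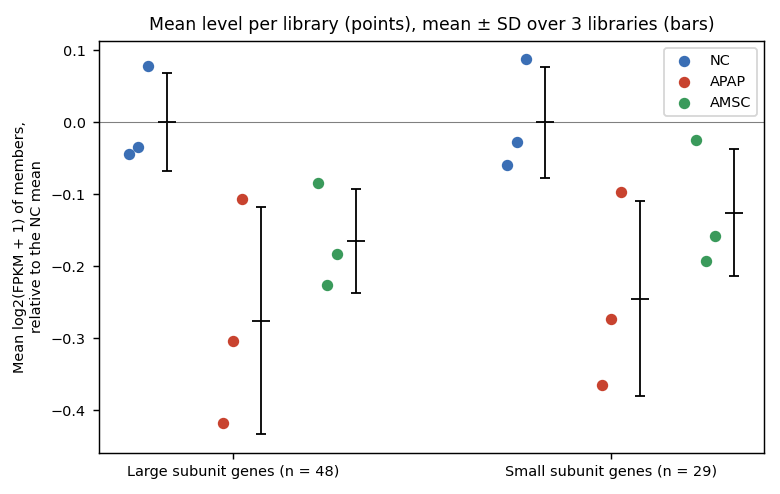
Mean log2(FPKM + 1) of the large (n = 48) and small (n = 29) subunit genes in each library relative to the NC mean, with 1 point per library and bars for the mean ± SD over the 3 libraries of a group. Both subunits show the same order of groups, and APAP replicate 3, at -0.11 and -0.10, stands nearest to NC among the APAP libraries.

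The first comparison set the livers given APAP alone against the NC livers. In APAP against NC, 20 of 77 tested members fell and none rose at an adjusted p of at most 0.05 (limma with Benjamini-Hochberg adjustment over 9699 genes), which is 26.0% of the members lower, where 13.1% of all tested genes were called lower and 12.8% higher. The 20 comprised 14 of 48 large subunit and 6 of 29 small subunit genes (8 and 5 without NC replicate 3, where 11.7% of all tested genes were lower). Their log2 fold changes ran from -0.92 to -0.40, so none reached a 2-fold change on the log2(FPKM + 1) scale, a size that 2.8% of tested genes passed downward and 5.09% upward with the same adjusted p. The median log2 fold change was -0.27 over the members and 0.00 over all tested genes, with medians of -0.26 for the large and -0.27 for the small subunit (-0.27 and -0.235 without NC replicate 3). The sign was negative for 62 members and positive for 15. In 36 members (46.8%) every APAP value was below every NC value, against 22.3% of tested genes, and in 1 member (Mrps6) every APAP value was above, against 20.9%.

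Of the small subunit, Mrps27, a pentatricopeptide repeat protein that mitochondrial ribosomes carry and bacterial ones lack, was at 12.7, 15.5 and 13.3 FPKM in NC, 7.12, 5.36 and 8.32 FPKM in APAP and 7.19, 9.23 and 7.66 FPKM in AMSC. All APAP and all AMSC values were below all NC values, and the 2 dosed groups overlapped. Its log2 fold change in APAP against NC was -0.92 ± 0.16 (SE, adjusted p = 0.00688, limma). The gene lies on chromosome 13, and 506 of its exonic bases overlap 6430562O15Rik on the opposite strand. Mrps2, a core protein of the subunit with a bacterial counterpart, was at 14.6, 16.4 and 14.6 FPKM in NC, 7.99, 8.93 and 6.58 FPKM in APAP and 12.4, 14.7 and 10.8 FPKM in AMSC. The AMSC values lay above all APAP values and reached into the NC range. Its log2 fold change was -0.88 ± 0.14 (SE, adjusted p = 0.00369, limma), the lowest adjusted p among the members, and its exons overlap no other annotated gene. Mrps22, which has no bacterial counterpart, was at 5.71, 5.62 and 5.68 FPKM in NC against 3.90, 3.23 and 3.39 FPKM in APAP, with every APAP value below every NC value (log2 fold change -0.57 ± 0.11, adjusted p = 0.00921, limma). The other small subunit genes that fell were Mrps5, Mrps18b and Mrps7, with log2 fold changes of -0.53, -0.50 and -0.43.

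Of the large subunit, Mrpl22, which lines the exit tunnel, was at 18.8, 16.4 and 22.6 FPKM in NC, 9.65, 10.4 and 13.2 FPKM in APAP and 16.9, 14.2 and 11.8 FPKM in AMSC. The APAP values were all below NC, and the AMSC values overlapped both groups. Its log2 fold change was -0.75 ± 0.16 (SE, adjusted p = 0.0145, limma). Mrpl50, found only in mitochondrial ribosomes, was at 22.7, 18.5 and 21.1 FPKM in NC, 12.6, 11.5 and 12.6 FPKM in APAP and 15.8, 16.4 and 14.1 FPKM in AMSC. The 3 groups did not overlap, with AMSC between the others. Its log2 fold change was -0.71 ± 0.12 (SE, adjusted p = 0.00566, limma). Mrpl36, a very small protein with a bacterial counterpart, went from 25.7 ± 2.17 to 15.8 ± 2.78 FPKM, and Mrpl49 from 17.3 ± 0.905 to 10.9 ± 2.23 FPKM (SD, n = 3). Mrpl47, at the tunnel exit, fell from 4.09 ± 0.499 to 2.33 ± 0.501 FPKM, and Mrpl44, a relative of RNase III enzymes, from 13.2 ± 0.361 to 8.32 ± 1.001 FPKM (SD, n = 3). Mrpl45, which helps to anchor the ribosome at the inner membrane, was at 10.9, 11.5 and 11.7 FPKM in NC and 8.10, 6.78 and 6.96 FPKM in APAP. Its groups did not overlap, and the log2 fold change was -0.58 (SE 0.11, limma adjusted p = 0.00961). The remaining 7 were Mrpl4, Mrpl15, Mrpl34, Mrpl19, Mrpl3, Mrpl43 and Mrpl39, with log2 fold changes from -0.58 to -0.40.

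**Figure D3:**
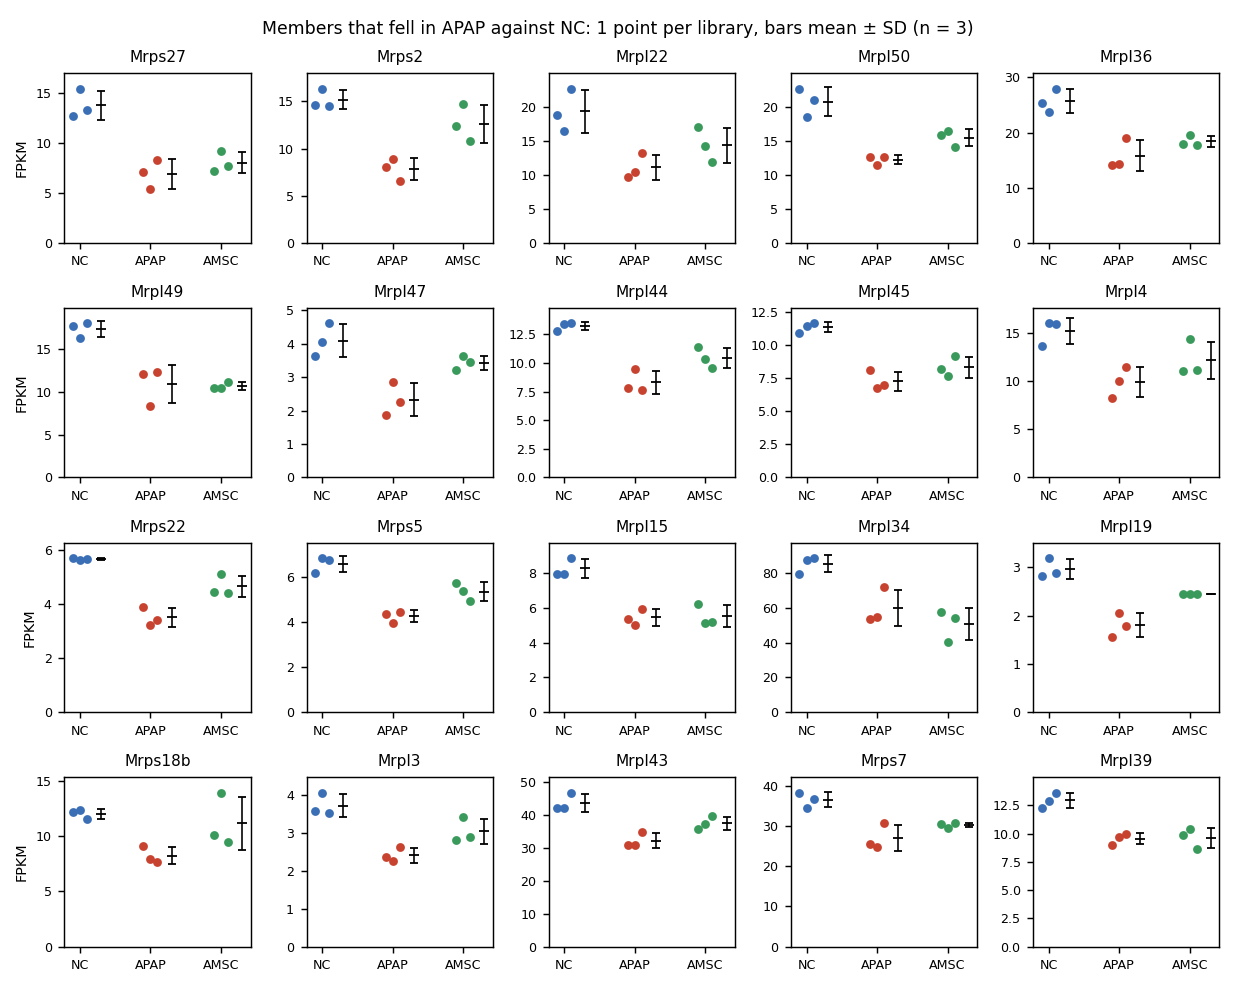
FPKM of the 20 members that fell in APAP against NC, 1 panel per gene with axes from 0, 1 point per library and bars for the mean ± SD (n = 3). APAP lies below NC in every panel, and the AMSC mean lies between the 2 in 18 panels and below APAP for Mrpl34 and Mrpl49.

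By evolutionary class, the calls were 8 of 27 members with counterparts in all ribosomes, 3 of 19 shared with bacteria only and 9 of 30 without a bacterial counterpart, Mrps36 being left unclassed. All tested genes were called lower in 13.1%, and the share of the class shared with bacteria only, 15.8%, is near this background. By place in the solved structures, where Mrps30 and Mrps18a belong to the large subunit and Mrps36 to the 2-oxoglutarate dehydrogenase complex, the counts were 14 of 50 large and 6 of 26 small subunit genes. The genes called spanned the range of levels. Of the most abundant members, Mrpl34 fell, whereas Mrpl12 was at 54.0, 56.5 and 52.1 FPKM in NC and 48.6, 45.1 and 54.6 FPKM in APAP, in overlapping groups with an adjusted p of 0.461 (limma). Mrps24 was at 44.0 ± 1.02 and 44.7 ± 11.4 FPKM (SD, n = 3) and did not pass the test. Mrps6 was the single member with non-overlapping higher values, at 4.18, 4.79 and 4.06 FPKM in NC and 5.35, 6.11 and 5.78 FPKM in APAP (log2 fold change 0.34 ± 0.11, adjusted p = 0.0655, limma), and with the replicate number as a block its adjusted p was 0.0447. Its exons share 464 bases with Slc5a3 and Gm49711 on the same strand, so its reads are uncertain.

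The block also called 6 further members lower in APAP against NC, namely Mrps21, Mrpl55, Mrpl51, Mrps36, Mrpl35 and Mrps35, with adjusted p from 0.0261 to 0.0491, in a fit that called 16.1% of all tested genes lower and 15.9% higher. The count of 20 depended on single libraries, since leaving out NC replicate 1 or NC replicate 2 brought it to 8, NC replicate 3 to 13 and APAP replicate 2 to 9. In those fits 10.4%, 10.4%, 16.9% and 11.7% of the members were lower, against 6.74%, 6.55%, 11.7% and 8.12% of all tested genes. Without NC replicate 3 the members called were all among the 20, the 7 that no longer passed being Mrpl34, Mrpl39, Mrpl4, Mrpl43, Mrpl47, Mrpl49 and Mrps7, the median log2 fold change of the members was -0.24, and 37 members (48.1%) had every APAP value below both remaining NC values, against 29.1% of tested genes, and 5 (6.49%) had every APAP value above, against 26.8%. Leaving out APAP replicate 3 instead gave 27 members lower (35.1%), against 10.7% of tested genes. With libraries scaled by their total reads on genes, 46 members fell, where 27.3% of tested genes were lower, and the median of all tested genes itself moved to -0.22. Of the 20, Mrpl44, Mrpl45, Mrpl50, Mrps2 and Mrps27 passed under all 16 alternative fits, and Mrps22 under the 15 that tested it. In GENCODE vM21, 33 of 78 members have exons that overlap another gene, 8 on the same and 28 on the opposite strand, and the strand setting of the counting is not given in the sources used here. Of the 20 that fell, Mrps27, Mrpl36, Mrpl49, Mrpl47, Mrpl44, Mrps18b, Mrpl19, Mrpl3, Mrps7 and Mrpl43 are among these 33, with the longest overlaps in Mrpl19 (1962 bases with Gcfc2) and Mrpl47 (1068 bases with Actl6a and Ndufb5), so reads of these genes and their partners cannot be told apart there. Among the 45 members with no such overlap, 10 fell (22.2%, against 13.1% of all tested genes in the same fit), with a median log2 fold change of -0.27. A protein-coding gene starts in the opposite direction within 1000 bases upstream of 18 members (23.1%), against 6.79% of all protein-coding genes, and of 5 of the 20 that fell.

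The second comparison asked how the AMSC livers differed from the livers given APAP alone. No member was called in AMSC against APAP (limma, lowest adjusted p = 0.0786), where 1.64% of tested genes were called higher and 2.14% lower. At an unadjusted p under 0.05 there were 12 higher and 1 lower (15.6% and 1.3% of the members, against 10.6% and 10.3% of all tested genes), and voom on the recovered reads called 0 (background 2.12% higher and 2.66% lower). A 2-fold change with the same adjusted p was reached by no member, by 0.742% of tested genes upward and by 1.22% downward. The log2 fold change was positive for 53 of 77 members and negative for 24, with a median of 0.11 against 0.01 over all tested genes, 0.11 for each subunit. The 12 higher became 1 without AMSC replicate 3 (1.3%, against 7.21% of all tested genes), 3 without AMSC replicate 2 (3.9%, 8.99%), 4 without APAP replicate 1 (5.19%, 10.5%), 5 without APAP replicate 2 (6.49%, 9.65%) or AMSC replicate 4 (6.49%, 7.5%), 15 without APAP replicate 3 (19.5%, 9.02%) and 2 with the replicate block (2.6%, 5.75%), so the members' share was above that of all genes in 1 of the 6 fits that leave out a library. Their median was 0.06 without APAP replicate 1, 0.07 without AMSC replicate 2, 0.19 without APAP replicate 3 and 0.04 with the block. In 16 members (20.8%) all AMSC values were above all APAP values, against 14.6% of tested genes, and in 1 member, Mrps6, they were all below, against 12.4%.

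Mrps2 had the largest upward difference, 0.62 ± 0.16 on the log2 scale (SE, adjusted p = 0.0786, limma), and it passed when all 9 libraries entered a single fit (adjusted p = 0.0311, where 1.3% of the members and 3.12% of all tested genes were called higher) and when libraries were scaled by total reads (adjusted p = 0.0494, where 2.46% of tested genes were higher). Among upward differences Mrpl47 followed at 0.42 ± 0.14, with 1.87, 2.87 and 2.26 FPKM in APAP and 3.21, 3.64 and 3.45 FPKM in AMSC (adjusted p = 0.148, limma). Mrpl50, Mrps22 and Mrpl19 had differences of 0.31, 0.33 and 0.30 with no overlap between the groups, and adjusted p values of 0.191, 0.182 and 0.202. Mrps6 was at 4.64, 3.36 and 3.95 FPKM in AMSC, below its APAP values (log2 fold change -0.44 ± 0.14, adjusted p = 0.121, limma). A p that misses the threshold does not show that the groups were alike: for Mrpl49 the values were 11.99, 8.29 and 12.3 FPKM in APAP and 10.5, 10.4 and 11.2 FPKM in AMSC, a difference of -0.01 with an SE of 0.16.

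The third comparison set the AMSC livers against NC, and it shares its NC libraries with the first. Here 10 of 77 members fell and none rose (13.0% lower, against 11.9% of tested genes lower and 14.1% higher), a share near that of all genes. The median log2 fold change was -0.12 over the members (-0.18 without AMSC replicate 2, -0.08 without AMSC replicate 3) and 0.02 over all tested genes, and 53 members had a negative sign. Of the 10, 9 were of the large and 1 of the small subunit (5 and 1 without NC replicate 3, where 11.5% of all tested genes were lower), and 8 were also called lower in APAP against NC: Mrpl15, Mrpl34, Mrpl36, Mrpl39, Mrpl45, Mrpl49, Mrpl50 and Mrps27. In 26 members (33.8%) every AMSC value was below every NC value, against 20.3% of tested genes, and in 2 members every AMSC value was above, against 23.2%.

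Mrpl34 had the largest fall, with 57.7, 40.3 and 54.4 FPKM in AMSC, all below NC (log2 fold change -0.75 ± 0.15, adjusted p = 0.00783, limma). Mrps27 fell by 0.72 and Mrpl49 by 0.65 on the log2 scale, with AMSC values near those of APAP. Mrpl18 and Mrpl1 were called here and not in APAP against NC. Mrpl1, of the stalk on the tRNA exit side, was at 6.35, 6.35 and 6.39 FPKM in NC, 5.54, 4.43 and 4.78 FPKM in APAP and 4.49, 4.08 and 4.17 FPKM in AMSC. All dosed libraries were below NC, by -0.32 (adjusted p = 0.0793) in APAP and -0.49 (adjusted p = 0.0078, limma) in AMSC. Mrpl18, of the central protuberance of the large subunit, went from 23.5 ± 2.26 to 15.9 ± 3.51 FPKM (SD, n = 3), and its exons overlap Tcp1 on the opposite strand by 141 bases. None of the 10 reached a 2-fold change, a size with the same adjusted p that 2.09% of tested genes passed downward and 3.92% upward. Leaving out NC replicate 1 brought the count of 10 to 5, and NC replicate 3 or AMSC replicate 4 to 6. In those fits 6.49%, 7.79% and 7.79% of the members were lower, against 7.22%, 11.5% and 8.03% of all tested genes. Without NC replicate 3 the median log2 fold change of the members was -0.10, the calls of Mrpl18, Mrpl39, Mrpl45 and Mrpl50 were lost, and 27 members (35.1%) had every AMSC value below both remaining NC values, against 27.0% of tested genes, and 8 (10.4%) had every AMSC value above, against 29.5%. None of the 10 passed under all 16 alternative fits: Mrpl1, Mrpl15, Mrpl49 and Mrps27 passed under 15, and Mrpl18 and Mrpl39 under 9. Scaling by total reads gave 32 calls, where 22.4% of tested genes were lower. Of the 20 members that fell in APAP against NC, all AMSC values were above all APAP values for 10 (50%) and all AMSC values were below all NC values for 15 (75%), against 36.1% and 70.1% of all 1271 genes called lower in that comparison. The choice of genes by the same APAP and NC libraries favours both, so nothing about the members is read from these shares.

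**Figure D4:**
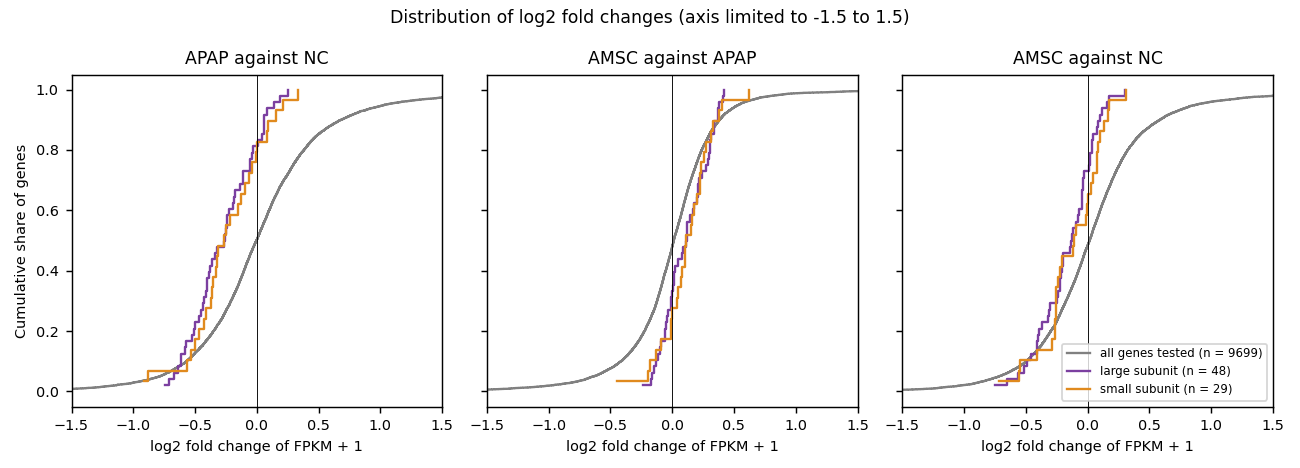
Cumulative share of genes against log2 fold change of FPKM + 1 for all 9699 tested genes (grey), large subunit genes (purple, n = 48) and small subunit genes (orange, n = 29) in the 3 comparisons, with the horizontal axis limited to -1.5 to 1.5. The members lie left of all genes in APAP against NC (medians -0.27 and 0.00), slightly right in AMSC against APAP (0.11 and 0.01) and slightly left in AMSC against NC (-0.12 and 0.02), with the 2 subunits close together.

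Other genes of the same machinery were taken from lists by role. Each count from the fits of all libraries reads against the shares of all tested genes, 13.1% lower and 12.8% higher in APAP against NC, 11.9% and 14.1% in AMSC against NC, and 2.14% and 1.64% in AMSC against APAP. The lists are short, so 1 gene moves a list's share by several percent or more. Of the 5 subunits that carry other names, Ptcd3 fell in APAP against NC, from 5.57, 5.51 and 5.82 FPKM to 3.73, 3.75 and 3.502 FPKM (log2 fold change -0.51, adjusted p = 0.0105, limma), and Dap3, Aurkaip1, Chchd1 and Gadd45gip1 did not pass the test. Of 22 assembly factors tested, 8 fell and 1 rose. The largest falls were of the rRNA methyltransferases Mrm2 (-1.12) and Mrm3 (-0.86) and of Noa1 (-0.77), a GTPase needed to build the small subunit. Ddx28, an RNA helicase of large subunit assembly, rose instead, from 6.25, 7.23 and 5.73 FPKM in NC to 8.67, 14.2 and 11.1 FPKM in APAP and 25.2, 19.7 and 27.4 FPKM in AMSC. The 3 groups did not overlap, and Ddx28 passed in all 3 comparisons, with log2 fold changes of 0.71, 1.04 and 1.75 (adjusted p = 0.0239, 0.0359 and 0.000143, limma). Mrm3 was also higher in AMSC than in APAP, at 4.20, 4.17 and 4.33 FPKM against 1.73, 2.50 and 2.50 FPKM (log2 fold change 0.70, adjusted p = 0.0373, limma), which placed it near its NC values of 4.34, 4.81 and 5.46 FPKM. In AMSC against APAP the calls of Ddx28 and Mrm3 were each lost in 5 of the 6 fits that leave out 1 library, with adjusted p up to 0.125 and 0.13, and that of Ddx28 in APAP against NC was also lost in 5 of 6 (up to 0.0788, limma).

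Of 13 translation factors tested, 7 fell and none rose in APAP against NC, and 7 fell in AMSC against NC, while none was called in AMSC against APAP. Leaving out NC replicate 1, NC replicate 2, APAP replicate 2 or APAP replicate 3 brought the 7 of APAP against NC to 3 (23.1%). In those fits 6.74%, 6.55%, 8.12% and 10.7% of all tested genes were lower. The calls lost each time were those of Gfm1, Gfm2, Mtif2 and Mtrf1l. In AMSC against NC the fits that leave out a library called 4 to 8, where 7.22% to 11.5% of all tested genes were lower. The 4 (30.8%) came without NC replicate 2, against 7.68% of all tested genes. Taco1, needed to translate the messenger RNA of cytochrome oxidase subunit 1, went from 15.5, 15.2 and 16.2 FPKM to 7.22, 4.73 and 6.73 FPKM in APAP and 6.10, 6.45 and 7.70 FPKM in AMSC. The dosed groups overlapped each other and lay far below NC, by -1.22 (adjusted p = 0.00182) and -1.11 (adjusted p = 0.000372, limma). The initiation factors Mtif3 (-0.75) and Mtif2 (-0.54) and the release factor Mtrf1 (-0.70) fell in APAP against NC, and Tufm, the abundant elongation factor, had a log2 fold change of -0.14 that did not pass.

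Of 9 tested genes that act in the expression or replication of mitochondrial DNA, 2 fell in APAP against NC. Tefm, the transcription elongation factor, was at 8.09, 7.37 and 8.92 FPKM in NC, 3.13, 2.83 and 2.99 FPKM in APAP and 6.30, 6.22 and 5.21 FPKM in AMSC. The groups did not overlap, and Tefm passed both downward in APAP against NC (-1.19, adjusted p = 0.000531) and upward in AMSC against APAP (0.79, adjusted p = 0.0187, limma), although the upward call was lost without APAP replicate 3, AMSC replicate 2 or AMSC replicate 3 (adjusted p up to 0.0777). Twnk, the DNA helicase, fell by 0.84, and its exons share 507 bases with Mrpl43 on the opposite strand. Tfam and Polrmt, the packaging factor and the RNA polymerase, had log2 fold changes of -0.15 and -0.14 that did not pass.

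Of the 13 protein-coding transcripts made inside the organelle, 1 rose and none fell in APAP against NC, 10 had a positive sign and the median log2 fold change was 0.36. The one was mt-Nd6, at 2347, 2001 and 2711 FPKM in NC and 4446, 4829 and 3472 FPKM in APAP (log2 fold change 0.85, adjusted p = 0.0127, limma), and without APAP replicate 2 it did not pass (adjusted p = 0.0536). Leaving out 1 library gave 0 to 3 higher, with 3 (23.1%) without APAP replicate 3, where 10.7% of all tested genes were higher. Without NC replicate 2, 1 was higher and 1 lower, against 7.4% and 6.55% of all tested genes. In AMSC against APAP the log2 fold changes of the same 13 transcripts centred on a median of -0.50, with 12 negative signs and none called. At an unadjusted p under 0.05 (limma) 4 were lower and 0 higher, against 10.3% and 10.6% of all tested genes. In AMSC against NC the median was -0.19, with 8 negative signs and none called. There 1 was lower and 0 higher unadjusted, against 17.8% and 20.2% of all tested genes. The rRNA of the large subunit, mt-Rnr2, rose from 340, 208 and 362 FPKM to 859, 821 and 676 FPKM (log2 fold change 1.40, adjusted p = 0.00442, limma), and that of the small subunit, mt-Rnr1, was at 385, 263 and 469 FPKM in NC and 360, 438 and 465 FPKM in APAP. In AMSC against NC both passed, with log2 fold changes of 0.70 and 0.74, but each passed in 1 of the 6 fits that leave out 1 library (without NC replicate 3). The libraries were made from mRNA, and how much of the rRNA they captured was not measured. Nuclear copies of mitochondrial DNA can share these reads, and mt-Nd6 is read from the opposite strand to most of its neighbours, so these levels are uncertain.

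Among 10 regulators of mitochondrial genes tested, 4 rose and 1 fell in APAP against NC. Myc, a transcription factor of growth genes, was at 6.97, 5.43 and 1.33 FPKM in NC, 27.5, 57.9 and 43.2 FPKM in APAP and 22.9, 28.9 and 23.2 FPKM in AMSC, a log2 fold change of 3.10 in APAP against NC (adjusted p = 0.00336, limma). The coactivator Ppargc1a went from 0.555, 0.50 and 0.582 FPKM to 2.28, 4.44 and 2.70 FPKM (1.39), and its relatives Ppargc1b (0.88) and Pprc1 (0.58) rose as well. Ppargc1a and Ppargc1b averaged 0.545 and 0.659 FPKM in NC, under the filter of 1 FPKM, and were tested only because they are higher in other groups, so their place among the 4 supports nothing. Esrra, a nuclear receptor that these coactivators bind, fell from 27.5, 29.7 and 27.0 FPKM to 14.5, 17.4 and 18.7 FPKM (log2 fold change -0.71, adjusted p = 0.00755, limma). Gabpa, the ETS factor, had a log2 fold change of -0.32 and Yy1 of 0.40, and neither passed in this comparison. In AMSC against NC 6 regulators rose, namely Myc, Pprc1, Ppargc1a, Yy1 (0.36), Nrf1 (0.34) and Gabpb1 (0.41), and Esrra fell. The calls of Yy1, Nrf1 and Gabpb1 were lost without NC replicate 3 (adjusted p = 0.0788, 0.0744 and 0.059, limma), and they held in 0, 0 and 1 of the 6 fits that leave out 1 library. Each of those fits called 3 or 4 regulators higher, Ppargc1a among them, so these counts support nothing. Like Ppargc1a, Nrf1 and Gabpb1, at 0.939 and 0.854 FPKM in NC, entered the test only through the dosed groups, so the count of 6 supports nothing either. No regulator was called in AMSC against APAP. Without NC replicate 3, Ddx28 (adjusted p = 0.0707), Gfm1 (0.0568), Gfm2 (0.0785) and Pprc1 (0.053) no longer passed in APAP against NC by limma. This left 8 assembly factors (36.4%) and 5 translation factors (38.5%) lower, against 11.7% of all tested genes. The 3 regulators still higher (30%, against 10.5%) were Myc, Ppargc1a and Ppargc1b, and Ppargc1a and Ppargc1b support nothing for the reason given above. In AMSC against NC 5 translation factors (38.5%) were lower in that fit, against 11.5% of all tested genes.

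**Figure D5:**
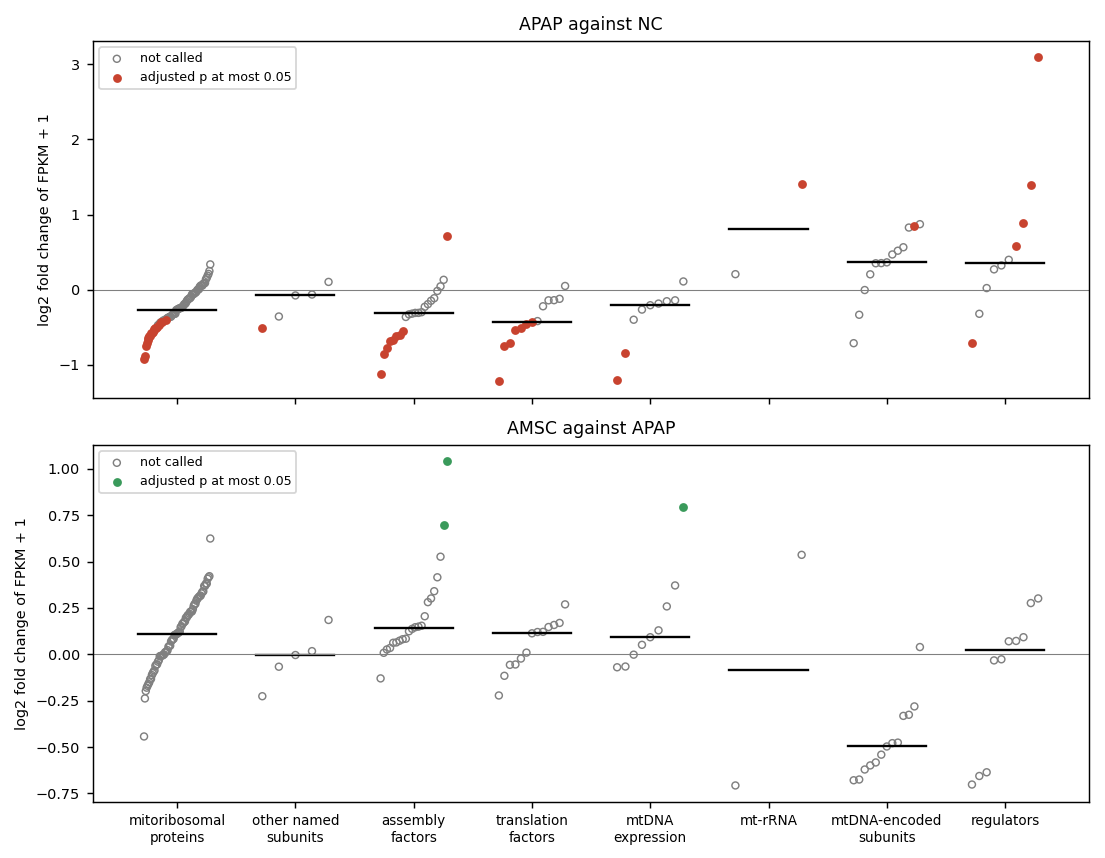
Log2 fold change of FPKM + 1 of each tested gene in the mitoribosomal protein set and 7 other lists, for APAP against NC (top) and AMSC against APAP (bottom, with a narrower axis), filled where the adjusted p was at most 0.05 and with a line at the median of each list. In the top panel the protein genes of the ribosome and of translation lie mostly below 0, while mt-Rnr2 (1.40) and Myc (3.10) stand above.

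Summed markers of other cells were higher on average in APAP than in NC, but the groups overlapped for the macrophage, endothelial and stromal genes. The part of these markers in the results on the members was not tested. The summed level of 10 macrophage genes was 101.1, 99.9 and 191 FPKM in NC, 274, 149 and 376 FPKM in APAP and 148, 94.2 and 89.7 FPKM in AMSC, with C1qa the most abundant. Of the 10, 2 rose in APAP against NC (where 12.8% of all tested genes did), a count that ran from 1 to 6 when 1 library was left out. The 6 came without APAP replicate 2, where 8.94% of all tested genes were higher. In AMSC against APAP 1 of the 10 was lower (against 2.14% of all tested genes), and 8 were without APAP replicate 2 (against 1.9%). The 8 erythroid genes summed to 138, 135 and 254 FPKM in NC, 1073, 306 and 1406 FPKM in APAP and 312, 183 and 234 FPKM in AMSC, led by Hbb-bs, a globin gene whose reads may be shared with its near-identical copy. Of the 5 tested, 4 rose in APAP against NC (against 12.8% of all tested genes), and 0 without NC replicate 1 or NC replicate 2. In AMSC against APAP 1 was lower (against 2.14%), and 4 were without APAP replicate 2 (against 1.9%). Neutrophil genes summed to 0.355, 0.448 and 1.82 FPKM in NC, 34.5, 7.58 and 15.95 FPKM in APAP and 6.03, 5.92 and 4.58 FPKM in AMSC. Of these 10 genes S100a9 was the most abundant, and Camp was at 0 in all 9 libraries. Only S100a8, S100a9 and Retnlg passed the filter, through the dosed groups where they are high, so no count of their calls is given. APAP replicate 2 was the lowest APAP library for all 3 of these lists. The 10 endothelial genes, led by Eng, summed to 48.3 ± 18.4 FPKM in NC, 67.4 ± 31.3 FPKM in APAP and 36.0 ± 1.47 FPKM in AMSC (SD, n = 3). The 10 stromal genes, led by Dcn, summed to 29.002 ± 9.41, 47.9 ± 17.2 and 35.9 ± 9.41 FPKM. In APAP against NC 1 endothelial and 0 stromal genes were called. Without APAP replicate 2 the counts were 3 and 2 higher, against 8.94% of all tested genes. Stromal genes such as Acta2 (0.715 FPKM in NC) passed the filter only through the dosed groups, so the stromal count supports nothing. The hepatocyte genes summed to 45141 ± 1586 FPKM in NC, 64494 ± 4412 FPKM in APAP and 57072 ± 985 FPKM in AMSC (SD, n = 3), higher in each APAP library than in any NC library. Of the 10, 4 rose and 1 fell in APAP against NC, where 12.8% and 13.1% of all tested genes did. Leaving out 1 library gave 2 to 4 higher, with 2 without APAP replicate 2 (20%, against 8.94%). Cyp2e1, the enzyme that converts APAP to its reactive product, fell from 3605, 3247 and 3373 FPKM to 1541, 294 and 705 FPKM.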

How the data were processed

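RNA of 9 mouse livers was sequenced as mRNA libraries (SMARTER mRNA-Seq kit, per the labels), and the authors deposited 1 table of FPKM per gene, a value scaled by gene length and library. Submitters' processing notes name GRCm38 (mm10), and the aligner and counter are not given in the sources used here. Every column of sample values was used. The members and gene lists were chosen with earlier results of these data known. All values above 0 were whole reads within 0.1 read, which gave the reads on genes per library. The library factor of the table did not follow these reads alone. AMSC replicate 4 had more reads on genes than NC replicate 2 (15259968 and 14920463). Yet 1 read per kilobase was 0.0665 FPKM in AMSC replicate 4 and 0.0578 FPKM in NC replicate 2. This value was 0.0578 to 0.0599 FPKM in NC and 0.0744 to 0.0807 FPKM in APAP, so group differences in FPKM depend on the factor. Each comparison was fitted on log2(FPKM + 1) for the libraries of its 2 groups with limma 3.58.1 (R 4.3.3, trended variance), over the 9699 genes that averaged 1 FPKM or more across all libraries, with Benjamini-Hochberg adjustment over all of them and two-sided tests. Log2 fold changes are on the log2(FPKM + 1) scale and understate changes of low genes. The study's methods describe 3 biological replicates per group, and p-values measure the spread between these mice.

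Genes named in the text were, per comparison, up to 8 members with the largest and 8 with the lowest log2 fold change past the threshold, the 3 highest and 3 lowest members of each subunit by mean FPKM, members that failed the filter, and up to 4 genes past the threshold per list. Other named genes were chosen after their values were seen. GENCODE vM21 gave the same coordinates as the table for 73 of 78 members. Mtrfr of the translation factor list was not found under that symbol. 5 processed pseudogenes that share the name pattern were left out. In APAP against NC, libraries with the same number in their names deviated together weakly. The correlations were r = 0.21, 0.16 and 0.38 across 9699 genes for numbers 1, 2 and 3. Libraries with unlike numbers were not compared, no label names a pairing, and number 3 joins libraries whose titles carry different dates. The block by replicate number is therefore an alternative only, and a pairing of the mice is not established. The title of NC replicate 3 numbers it differently from its description, which was used. Alternatives varied the pseudocount, filter, scaling, genes, libraries, variance model and block. The scripts were tested on simulated data. Changes of 1.5-fold were recovered in 49% of cases in APAP against NC, 10% in AMSC against APAP and 43.9% in AMSC against NC. Changes of 2-fold were recovered in 100%, 72.4% and 94.9%. The simulation gave all genes the same spread, so recovery in the real data can differ. Tables were handled in Python 3.11.15 with pandas 2.3.3.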

Additional observations from a re-analysis of the deposited data

How the results depend on the processing

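Scaling each library by its total reads on genes, an alternative chosen after seeing the data like voom and the list counts, moved the median of all tested genes to -0.22 in APAP against NC and -0.14 in AMSC against NC, and the members moved with it, to medians of -0.50 and -0.30. The members called were then 46 (background 27.3% lower), 1 (AMSC against APAP) and 32 (AMSC against NC, background 22.4% lower), and the other lists had 42 calls in APAP against NC. With an absolute log2 fold change of at least 1 required, 0 members were called in each comparison. Leaving out 1 replicate gave 8 to 27, 0 and 5 to 12 members called in APAP against NC, AMSC against APAP and AMSC against NC (the 27 without APAP replicate 3 all lower, 35.1% against 10.7% of all tested genes, and the 12 without AMSC replicate 3 being 11 lower, 14.3% against 10.9%, and 1 higher, 1.3% against 13.0%), and the other lists gave 19 to 26, 0 to 3 and 15 to 21 calls. A single fit of all 9 libraries called 1 member higher in AMSC against APAP (1.3%, against 3.12% of all tested genes). Calls in the other lists are pooled over unlike lists and both directions, and can include regulators that entered the test only through the dosed groups. Nothing about the lists is read from them. The other lists had 26, 3 and 26 calls in the 3 comparisons. With a mean of at least 5 FPKM they gave 13 (APAP against NC) and 15 (AMSC against NC). In those fits 12.7% and 13.1% of all tested genes were lower and 14% and 17.5% higher. With all genes above 0 the lists gave 0 (AMSC against APAP) and 16 (AMSC against NC, where 3.2% of all genes were lower and 3.95% higher). By voom they gave 5 (AMSC against APAP). The 3 calls in AMSC against APAP were lost without APAP replicate 3, AMSC replicate 2 or AMSC replicate 3, and 1 was left without AMSC replicate 4. The cause of these differences was not tested.

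The replicate block called 27 members in APAP against NC, 26 lower and 1 higher (33.8% and 1.3%, where 16.1% and 15.9% of all tested genes were called), and ended none of the 20 calls. In the other comparisons the numbers were shared by 2 pairs of libraries, whose deviations correlated at -0.10 and -0.29 (AMSC against APAP) and -0.20 and -0.31 (AMSC against NC). Libraries with the same number did not deviate together there. There the replicate block, on 2 pairs, called 0 members in both, where 1.52% of tested genes were higher and 2.5% lower (AMSC against APAP) and 5.61% higher and 3.11% lower (AMSC against NC), with 0 and 7 calls in the other lists. No member called lower in APAP against NC or AMSC against NC changed direction under any alternative run. The median of all tested genes in AMSC against NC did, from 0.02 to a negative value with libraries scaled by total reads. The smallest single value of a tested member rested on 67 reads (Mrps6), and what depth limits was not tested.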
